A study of Mus musculus with 6 samples.

Results

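The imprinted growth network is a set of genes that are each expressed mainly from the copy inherited from 1 parent and that act on fetal growth. The 10 genes described here were Igf2, Dlk1, Grb10, Plagl1, Peg3, Cdkn1c, Ndn, H19, Meg3 and Mest. Members were taken as every probe set (a group of short array probes read out as 1 signal) whose platform annotation names 1 of these genes alone. This gave 36 probe sets of 9 genes, out of 45037 probe sets on the array other than controls. The only probe set for H19 is annotated to H19 and Mir675 together, so it is described beside the 36 and not counted among them.

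The samples were megakaryocyte progenitors, blood precursors on the way to megakaryocytes, the cells that shed platelets. The 3 fetal liver samples came from embryos at E13.5 and the 3 bone marrow samples from adults aged 12 to 18 weeks. All mice were wild type C57BL/6, no treatment is named, and the same gate was used in both tissues (lin-, Sca-1-, c-kit+, CD150+, CD41+). The labels call the samples of a tissue biological replicates without saying how many animals each holds, so p-values measure the spread between these samples only.

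Imprinting is set in the germ line by DNA methylation, and it leaves some genes active from the paternal copy and others from the maternal copy. Many paternally expressed genes, Igf2 among them, promote growth, and several maternally expressed ones, such as Cdkn1c, restrain it. In the mouse many of these genes are expressed widely in the embryo and fall after birth. A signal on these arrays sums both copies and does not show from which one a transcript came.

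All 14 measured markers of megakaryocyte progenitors were above background on at least 1 fetal liver array, and none of the 14 passed the test between tissues. Background on an array was the highest signal of its 27 bacterial control probe sets, which lay between 22.2 and 35.1. Genes of the gate differed by -0.64 for Itga2b (CD41, adjusted p = 0.184), -0.55 for Kit (adjusted p = 0.499) and 0.29 for Slamf1 (CD150, adjusted p = 0.759), each on the log2 scale as fetal liver minus bone marrow. The share of probe sets above background was 59.7% to 63.5% on the fetal liver arrays and 62.3% to 68.8% on the bone marrow arrays. Log2 signals correlated across probe sets at 0.932 to 0.951 within fetal liver, 0.911 to 0.920 within bone marrow and 0.891 to 0.911 between the tissues. The number of arrays limits the precision of every value.

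H19 is a long non-coding RNA that is also the precursor of the microRNA miR-675, which lies inside it on chromosome 7, minus strand. The mature forms, from RefSeq on GRCm38.p6, are shown because the array reads H19 and Mir675 by 1 probe set, and capitals mark the seed (bases 2 to 8).
miR-675-5p: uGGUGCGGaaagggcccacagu
miR-675-3p: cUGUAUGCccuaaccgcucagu
The seeds of the 2 arms differ, and neither mature form was measured apart from its precursor.

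Imprinted genes are controlled through methylation of CpG sites. The bases before the start of Peg3, Ndn and Grb10, all with a probe set past the test in every fit with an array left out, are shown for the range of CpG content among them. They come from RefSeq on GRCm38.p6, are written on the gene's strand, and have each CpG in capitals.
Peg3, chr7:6730463-6730669, minus strand: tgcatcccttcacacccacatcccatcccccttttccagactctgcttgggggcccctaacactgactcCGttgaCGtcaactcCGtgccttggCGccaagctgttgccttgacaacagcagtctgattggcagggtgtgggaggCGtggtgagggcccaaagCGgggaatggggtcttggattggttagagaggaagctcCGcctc
Ndn, chr7:62348027-62348276, plus strand: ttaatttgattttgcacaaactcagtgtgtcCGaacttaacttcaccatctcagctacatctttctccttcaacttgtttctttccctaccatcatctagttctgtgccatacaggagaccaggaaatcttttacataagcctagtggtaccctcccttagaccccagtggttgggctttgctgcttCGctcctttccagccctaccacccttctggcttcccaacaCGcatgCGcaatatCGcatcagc
Grb10, chr11:12037429-12037670, minus strand: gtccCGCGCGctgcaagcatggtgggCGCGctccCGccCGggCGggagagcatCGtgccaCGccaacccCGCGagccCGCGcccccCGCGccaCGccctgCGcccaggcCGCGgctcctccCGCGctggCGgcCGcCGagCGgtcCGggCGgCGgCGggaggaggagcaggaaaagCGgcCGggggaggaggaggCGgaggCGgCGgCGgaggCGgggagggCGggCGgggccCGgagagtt
The Grb10 stretch of 242 bases holds 40 CpG, the Peg3 stretch of 207 bases holds 7 and the Ndn stretch of 250 bases holds 5. Over whole promoter windows (250 bases before to 50 after a start), the 15 windows of the 8 members with an entry had a median of 13 CpG, and all 32851 windows searched had a median of 7. Grb10 had 2 windows, with 9 and 45 CpG, and the stretch shown lies in the richer one. Plagl1, with 26 CpG in its window, also kept a call in every fit with an array left out and is not shown. The 8-letter motif GGGGCCCC, which reads the same on both strands and resembles the GC-rich sites of PLAGL1, was in the Peg3 window and in none of the other members' windows. It was in 1.08% of all windows searched. Methylation and binding were not measured.

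Of the 9 genes, 6 had at least 1 probe set past the test as higher in fetal liver, and none had a probe set past it as lower. Of the 36 probe sets, 13 were past an adjusted p of 0.05 as higher in fetal liver and 0 as lower (limma, Benjamini-Hochberg over all 45037). Among all probe sets, 0.888% were called higher and 1.75% lower, against 36.1% of the member probe sets called higher. The members were chosen with earlier results of these data known, so the shares here and below are descriptive. At an unadjusted p under 0.05, 16 were higher and 0 lower. All 3 fetal liver signals lay above all 3 bone marrow signals in 16 of the 36 (44.4%, against 8.68% of all probe sets), and the opposite held for 0 (against 11.8%). The median log2 change of the 36 was 1.26, and that of all probe sets was -0.07. With bounds in place of fitted values where marrow alone was above background on no array, the median of the 36 was 1.17. The 9 probe sets above background on no array in either tissue kept their fitted values there. The 1.17 rests partly on 1 of these, a Meg3 probe set (1429256_at, 1.09). With 1 array left out, the count of 13 became 8, 5 and 5 without fetal liver replicates 1, 2 and 3, and 11, 9 and 8 without bone marrow replicates 1, 2 and 3. It was 6 without the intensity trend in the variance.

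The 13 called probe sets belong to 6 genes, Igf2, Dlk1, Grb10, Plagl1, Peg3 and Ndn. Each gene's brightest probe set was past the test in these 6 of 9 genes, against 1.21% of all 18193 genes higher and 2.36% lower. By the copy known to be expressed in mouse, they are 5 of the 6 paternally expressed members (Mest was the other) and 1 of the 3 maternally expressed members with a probe set of their own (Grb10). H19, the remaining maternally expressed member, is outside this count. The probe set it shares with Mir675 was also called higher in fetal liver (limma adjusted p = 0.00101). All 13 were above background on all 3 fetal liver arrays, and 5 of them on none of the bone marrow arrays. The highest fetal liver signal was on replicate 1 for 6 of the 13, on replicate 2 for 4 and on replicate 3 for 3. Of the 36 probe sets, 9 were above background on no array. A filter at the 40th percentile of mean signal, not used in the fit described here, would pass 20 of the 36. In RNA of a sorted population, fewer cells that express a gene and less RNA per cell cannot be told apart.

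**Figure D1:**
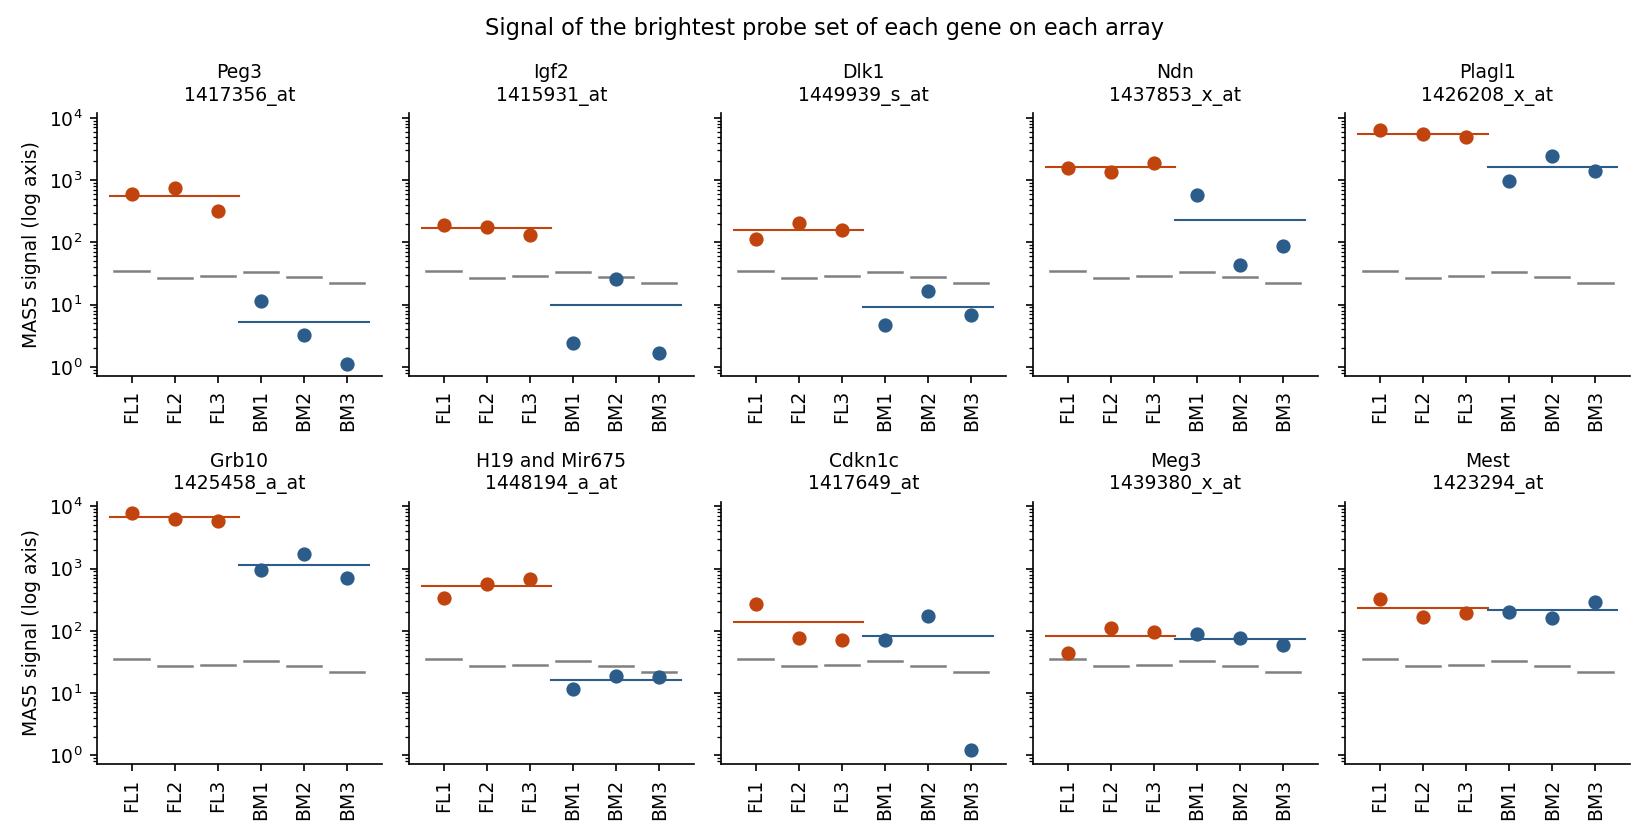
Linear MAS5 signal (log axis) of the brightest probe set of each gene and of the H19 and Mir675 probe set on the 3 fetal liver arrays and the 3 bone marrow arrays, 1 point per array, with coloured lines for the mean of each tissue and grey dashes for each array's background. Igf2, Dlk1, Grb10, Plagl1, Peg3, Ndn and the H19 and Mir675 probe set have 3 fetal liver points above 3 bone marrow points, while the points of Cdkn1c, Meg3 and Mest overlap.

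Igf2 encodes insulin-like growth factor 2, a fetal growth factor that signals through the IGF1 and insulin receptors. Its brighter probe set (1415931_at) had signals of 193, 178 and 133 in fetal liver replicates 1, 2 and 3, against 2.39, 25.9 and 1.66 in bone marrow. Fetal liver was above background on all 3 arrays and marrow on none, so the difference is a lower bound, at least 6.11-fold (adjusted p = 0.0201). Such bounds set the fetal liver mean of log2 signals against the marrow mean, with each marrow signal below background put at its array's background.

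The second Igf2 probe set (1448152_at) gave 70.9, 100.4 and 104 in fetal liver, against 9.18, 3.80 and 9.15 in bone marrow, at least 3.33-fold higher (adjusted p = 0.0311). Both probe sets separate the tissues, and the marrow values have no order among themselves because they lie below background. The call of the brighter one was lost without bone marrow replicate 1 (0.0629) or 3 (0.0619), without fetal liver replicate 1 (0.0815), 2 (0.0956) or 3 (0.0855), and without the intensity trend (0.0584). The second was lost without any 1 of the 6 arrays (0.0627 to 0.139).

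Dlk1 encodes a membrane protein of the delta family that can be shed, known for holding back differentiation and for its high level in hepatoblasts. Its brighter probe set (1449939_s_at) had signals of 115, 204 and 159 in fetal liver, against 4.67, 16.4 and 6.82 in bone marrow, where no array was above background. The difference was at least 5.70-fold (adjusted p = 0.0150), and the call was lost without fetal liver replicate 2 (0.0933) or 3 (0.0855). The other Dlk1 probe set (1442724_at), with 14.6, 53.0 and 53.1 in fetal liver and 33.2, 9.80 and 40.3 in bone marrow, overlapped between tissues and differed by 0.49 ± 0.81 (log2, SE, adjusted p = 0.847). Its sign turned without bone marrow replicate 2 (-0.06).

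Grb10 encodes an adaptor that binds the insulin and IGF1 receptors and restrains their growth signal. Its brightest probe set (1425458_a_at) had signals of 7679, 6343 and 5808 in fetal liver, against 948, 1738 and 693 in bone marrow. The means were 6610 ± 964 in fetal liver and 1126 ± 545 in bone marrow (SD, n = 3 each), a log2 change of 2.65 ± 0.31 (SE, adjusted p = 0.00101). Every bone marrow array was above background, so both levels were measured. The call held with any 1 array left out and missed the threshold without the intensity trend (0.0507).

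A second Grb10 probe set (1425457_a_at) gave 651, 926 and 792 in fetal liver, against 64.6, 259 and 182 in bone marrow (2.40 ± 0.48, adjusted p = 0.0240). Its call was lost without fetal liver replicate 1 (0.0720), 2 (0.134) or 3 (0.126), without bone marrow replicate 3 (0.0532) and without the trend (0.120), and the change was 1.83 without bone marrow replicate 1. The third (1430164_a_at) gave 166, 1523 and 927 in fetal liver, against 31.9, 109 and 182 in bone marrow. Here the lowest fetal liver array lay within the marrow range, and the change of 2.80 ± 0.80 did not pass (adjusted p = 0.102). It passed without fetal liver replicate 1 (0.0291) and with signals floored at background (0.000116). In each tissue its lowest signal was on replicate 1, the array with the lowest 5' to 3' signal ratio of Gapdh (0.109, 0.449 and 0.432 in fetal liver, and 0.0990, 0.177 and 0.303 in bone marrow). The same ratio of Actb was 0.892, 1.02 and 0.971 in fetal liver, and 1.08, 1.13 and 1.06 in bone marrow. The part of these ratios in the result was not tested.

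Plagl1 encodes a zinc finger transcription factor that regulates other imprinted genes in mouse, Igf2 and H19 among them. Its brightest probe set (1426208_x_at) had signals of 6400, 5444 and 4872 in fetal liver, against 956, 2480 and 1394 in bone marrow. The means were 5572 ± 772 in fetal liver and 1610 ± 784 in bone marrow (SD, n = 3 each), a log2 change of 1.89 ± 0.31 (SE, adjusted p = 0.00795). The call held with any 1 array left out, with changes of 1.57 to 2.26, and was lost without the trend (0.119).

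A second Plagl1 probe set (1450533_a_at) gave 668, 401 and 544 in fetal liver, against 38.3, 95.9 and 162 in bone marrow (2.59 ± 0.53, adjusted p = 0.0257). All marrow arrays were above background and the tissues did not overlap. Its call was lost without fetal liver replicate 1 (0.116), 2 (0.0873) or 3 (0.140), without bone marrow replicate 2 (0.0544) and without the trend (0.105). The third probe set (1438588_at) overlapped, with 73.4, 69.5 and 129 in fetal liver and 86.8, 86.0 and 77.6 in bone marrow (0.06 ± 0.55, adjusted p = 0.980), and its sign turned without fetal liver replicate 3 (-0.22).

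Peg3 encodes a large zinc finger protein of the paternal set, known in mouse for effects on growth and maternal behaviour. Its brightest probe set (1417356_at) gave 597, 748 and 316 in fetal liver, against 11.4, 3.25 and 1.13 in bone marrow, at least 19.1-fold higher (adjusted p = 0.000918). All marrow signals were below background, so the marrow level is known only as a bound.

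Another Peg3 probe set (1433924_at) gave 438, 605 and 502 in fetal liver, against 15.4, 23.7 and 22.9 in bone marrow, where 1 array was above background (4.47 ± 0.51, adjusted p = 0.000918). Both calls held in every alternative run, with any array left out included. The third (1417355_at) gave 80.7, 65.7 and 58.9 in fetal liver, against 4.59, 2.20 and 1.84 in bone marrow, at least 2.49-fold higher (adjusted p = 0.0152). This dimmer one lost its call without bone marrow replicate 2 (0.0501) or 3 (0.0551), without fetal liver replicate 2 (0.0577) or 3 (0.0546), and with signals floored at background (0.0848). The remaining 2 Peg3 probe sets were above background on no array, with signals of at most 15.2.

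Ndn encodes necdin, a protein of the MAGE family that restrains cell cycle entry and is best known from neurons. Its steadiest probe set (1435382_at) had signals of 1137, 1046 and 1071 in fetal liver, against 44.5, 11.8 and 98.6 in bone marrow. The means were 1085 ± 47.4 in fetal liver and 51.6 ± 43.8 in bone marrow (SD, n = 3 each), a log2 change of 4.72 ± 0.62 (SE, adjusted p = 0.00216). The call held in every alternative run (adjusted p up to 0.0399), and with 1 array left out the change was 3.97 to 5.36, lowest without bone marrow replicate 2 and highest without replicate 3.

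The brightest Ndn probe set (1437853_x_at) gave 1537, 1369 and 1869 in fetal liver, against 566, 43.1 and 87.3 in bone marrow (3.57 ± 0.71, adjusted p = 0.0230). A further one (1455792_x_at) gave 1221, 1112 and 1487 in fetal liver, against 263, 4.02 and 4.77 in bone marrow (5.72 ± 1.11, adjusted p = 0.0201). In both, bone marrow replicate 1 stood above the other marrow arrays, and without it the changes were 4.62 and 7.45. For 1455792_x_at that was the only marrow array above background, so the 7.45 rests on marrow signals below background. With signals floored at background its change on all arrays was 4.54. The calls of both probe sets were lost without any 1 array other than bone marrow replicate 1 (0.0599 to 0.123). Both were also lost without the trend (0.146 and 0.136).

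Another Ndn probe set (1435383_x_at) gave 1076, 1161 and 1220 in fetal liver, against 112, 0.674 and 197 in bone marrow, and missed the threshold (4.73 ± 1.15, adjusted p = 0.0551). It passed without bone marrow replicate 2 (0.00333) or 3 (0.0401), with an offset of 16 (0.0295), with signals floored at background (4.25e-10), with median centring (0.0331) and under either filter on dim probe sets (0.0456 and 0.0431). The fifth (1415923_at) gave 238, 167 and 216 in fetal liver, against 96.2, 1.11 and 75.5 in bone marrow, without overlap and without a call (2.73 ± 1.04, adjusted p = 0.228). The remaining 3 Ndn probe sets were above background on no array, with signals of at most 18.1.

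Cdkn1c encodes p57, a cyclin-dependent kinase inhibitor of the maternal set that keeps stem cells quiescent in mouse. Its only probe set (1417649_at) gave 269.5, 76.3 and 71.2 in fetal liver, against 72.2, 172 and 1.22 in bone marrow. The tissues overlapped, and the change of 1.63 ± 1.19 did not pass (log2, SE, adjusted p = 0.584). Without bone marrow replicate 3, the array at 1.22, the change was 0.03.

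H19 restrains growth in mouse and is expressed from the maternal copy next to Igf2, with 3 listed genes between them. The probe set annotated to H19 and Mir675 (1448194_a_at) gave 334, 561 and 679 in fetal liver, against 11.4, 18.9 and 18.1 in bone marrow. Fetal liver was well above background on every array and marrow on none, a difference of at least 18.5-fold (adjusted p = 0.00101). The call held in every alternative run, with an adjusted p of at most 0.0208. Within fetal liver, replicate 3 was highest here and for the second Igf2 probe set, and lowest for the brighter Igf2 probe set.

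Meg3 is a maternally expressed long non-coding RNA on chromosome 12, with 3 listed genes between it and the paternally expressed Dlk1. None of its 11 probe sets passed (adjusted p of 0.475 or more), and their log2 changes ran from -1.20 to 1.26. They were dim, with signals of 0.815 to 109, and 4 of the 11 were above background on no array. The brightest (1439380_x_at) gave 44.5, 109 and 96.3 in fetal liver, against 87.6, 78.1 and 60.0 in bone marrow (0.06 ± 0.60, adjusted p = 0.980), so the tissues overlapped.

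Mest encodes a paternally expressed protein of the alpha/beta hydrolase family whose loss slows fetal growth in mouse. Its only probe set (1423294_at) was above background on every array, with 329, 166 and 191 in fetal liver, against 201, 159 and 292 in bone marrow. The ranges overlapped and the change was 0.05 ± 0.45 (log2, SE, adjusted p = 0.977). Its sign turned without fetal liver replicate 1 (-0.24) and without bone marrow replicate 2 (-0.14).

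**Figure D2:**
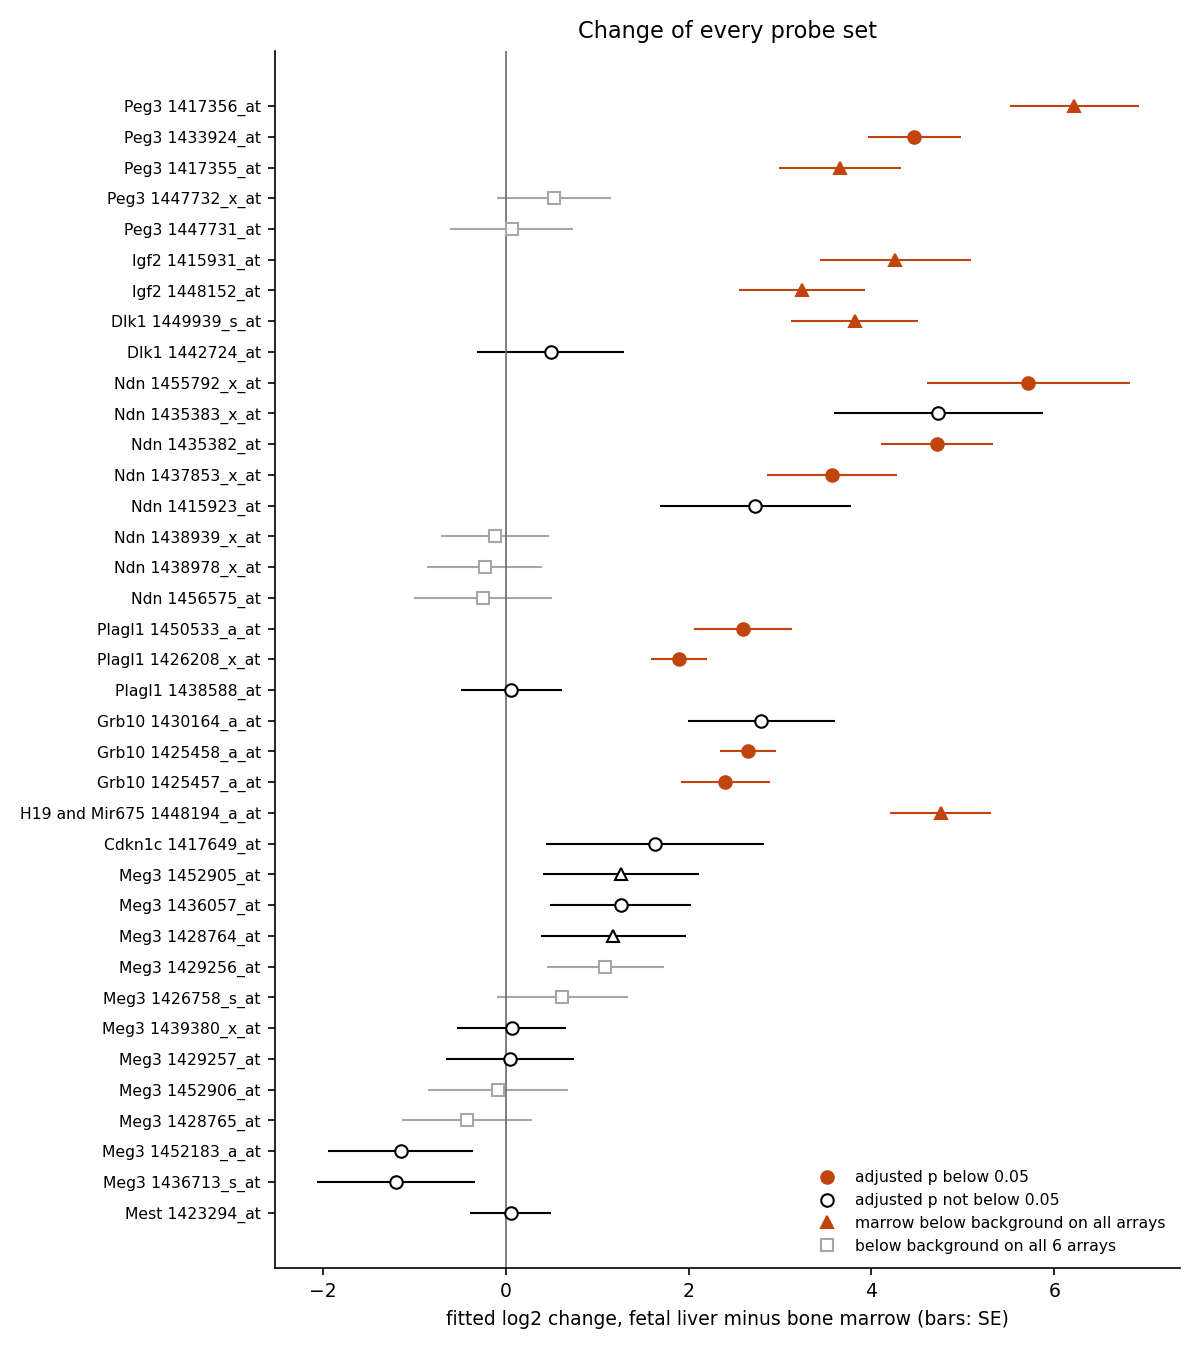
Log2 change (fetal liver minus bone marrow) of every member probe set and of the H19 and Mir675 probe set, with bars for the SE of the fit. Filled points passed the test, open points did not, triangles mark probe sets whose bone marrow signal was below background on all 3 arrays, and grey squares those below background on all 6. Changes drawn as triangles are fitted values and no bounds, and the called members run from 1.89 (Plagl1) to 6.22 (Peg3).

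**Figure D3:**
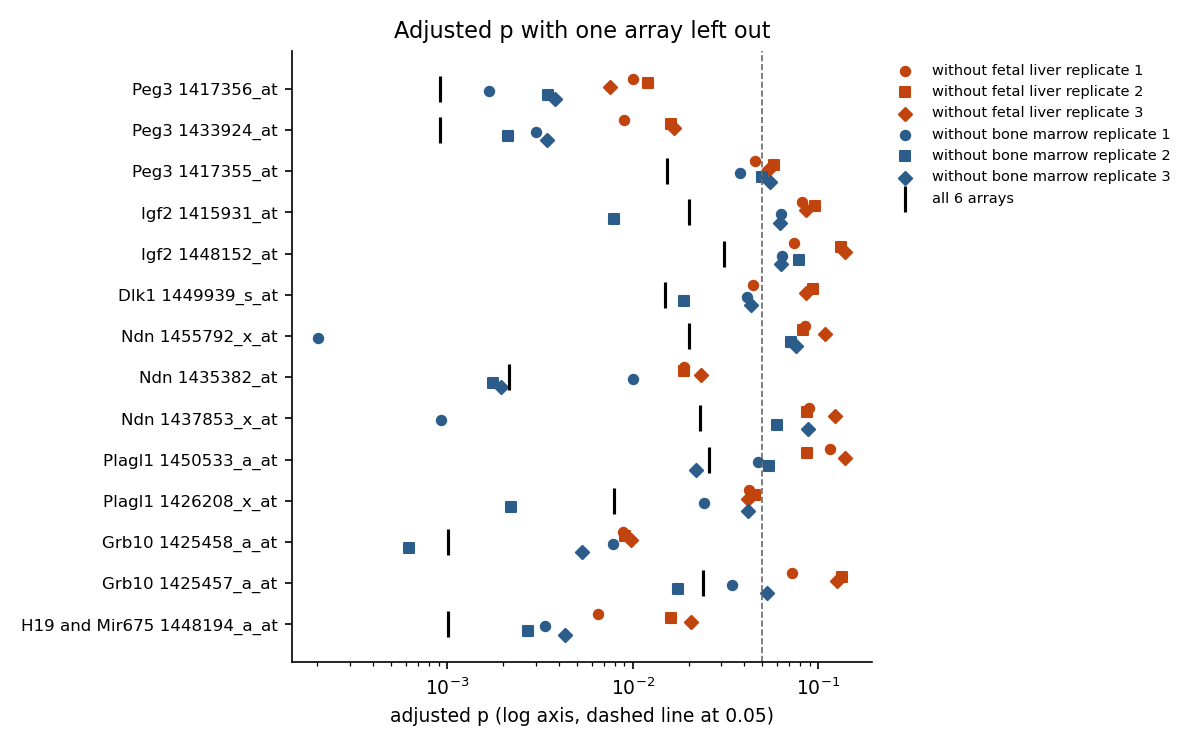
Adjusted p (log axis) of each called probe set in the fit to all 6 arrays and in each fit with 1 array left out, with the threshold of 0.05 as a line. Of the 13 called member probe sets, 5 stay under the line in all 6 left-out fits, namely 2 of Peg3 and 1 each of Grb10, Plagl1 and Ndn, and so does the H19 and Mir675 probe set.

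Among other imprinted genes the share that passed was near that of all genes. Of 68 listed, 58 were measured, and by their brightest probe set 1 was higher and 1 lower (3.45% called in either direction). Over all genes taken the same way, 1.21% were higher and 2.36% lower. The list's median log2 change was 0.04, against -0.03 over all genes. At an unadjusted p under 0.05, 9 were higher and 4 lower. Slc38a4, an amino acid transporter, gave 33.6, 51.5 and 51.5 in fetal liver, against 4.72, 4.80 and 1.92 in bone marrow, at least 1.64-fold higher (adjusted p = 0.0456). Its signal on fetal liver replicate 1 was also below that array's background of 35.1, so the bound rests partly on a signal below background. Osbpl5, a lipid-binding protein, gave 3.94, 6.70 and 9.97 in fetal liver, against 158, 69.7 and 89.2 in bone marrow, at least 3.32-fold lower (adjusted p = 0.0261). Both calls were lost without any 1 array, and without bone marrow replicate 2 the list's count of higher genes was 2, by Igf2r and Sfmbt2.

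Partners of IGF2 were described from a list of 16 genes, of which 15 were measured. In it 2 were higher and 0 lower, with a median log2 change of -0.25, and both are mRNA-binding proteins known to bind Igf2 mRNA. Igf2bp1 gave 1405, 1330 and 1283 in fetal liver, against 22.1, 16.5 and 7.84 in bone marrow, at least 49.2-fold higher (adjusted p = 6.87e-05). Igf2bp3 gave 3056, 2739 and 2475 in fetal liver, against 224, 268 and 208 in bone marrow (3.55 ± 0.27 log2, adjusted p = 5.92e-05). The receptors did not pass, with changes of 0.36 for Igf1r (adjusted p = 0.399), 1.39 for Igf2r, which clears IGF2 (0.168, and 0.0492 without bone marrow replicate 2), and -0.25 for Insr (0.780), named after their values were seen.

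Close relatives of the members, from a list of 13, gave 0 calls in either direction by limma and 2 each way at an unadjusted p under 0.05. The pair with the smallest p were Cdkn1b, a cell cycle inhibitor related to Cdkn1c (-1.21 ± 0.33, adjusted p = 0.0848), and Plagl2, related to Plagl1 (1.14 ± 0.39, adjusted p = 0.170). Among 17 measured genes of imprint establishment and maintenance, 1 was higher. That was the DNA methyltransferase Dnmt3b, with 4259, 2979 and 3057 in fetal liver, against 1465, 1669 and 1466 in bone marrow (1.14 ± 0.22, adjusted p = 0.0201). Its call was lost without any fetal liver array and without bone marrow replicate 1 or 3 (0.0595 to 0.0863).

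Among 16 partners of DLK1 and the NOTCH pathway, 0 were higher and 1 was lower. Notch2, a receptor of the pathway, gave 3519, 2936 and 2661 in fetal liver, against 6475, 7662 and 5946 in bone marrow (-1.14 ± 0.20, adjusted p = 0.0104). The tissues did not overlap, and the call was lost without fetal liver replicate 2 (0.0646) or 3 (0.0786).

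**Figure D4:**
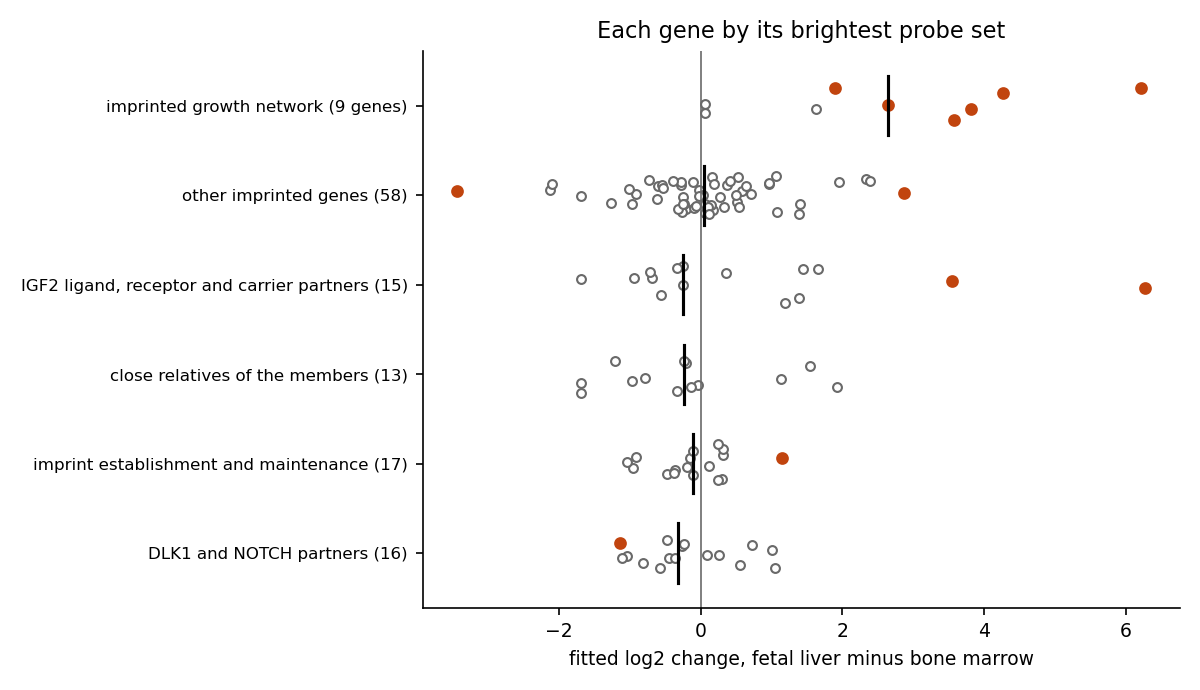
Log2 change (fetal liver minus bone marrow) of each measured gene of the network and of the described lists, by its brightest probe set, with a bar for each list's median and filled points for genes past the test. The network's median is 2.65, and those of the other lists lie between -0.32 and 0.04. Members and lists were chosen with earlier results of these data known.

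Markers of other cells in the sampled organs were set beside the network, since several members are also known from hepatoblasts and stroma. Of 21 measured hepatoblast and hepatocyte markers 0 were called in either direction (5 higher and 1 lower at an unadjusted p under 0.05), and their summed signal was 1013 to 4501 in fetal liver and 846 to 1500 in bone marrow. In fetal liver 8 of them were above background on no array (Apob, Fga, Fgb, Fgg, Ambp, Rbp4, Krt8 and Cdh1). Afp gave 362, 2793 and 265 in fetal liver, against 457, 27.9 and 444 in bone marrow, and Apoa1 gave 222, 262 and 166 in fetal liver, against 57.0, 66.8 and 10.3 in bone marrow. Fetal liver replicate 2 was thus the highest for Afp and Apoa1.

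Of 16 stromal markers 0 were called (2 higher and 1 lower at an unadjusted p under 0.05), with summed signals of 554 to 893 in fetal liver and 575 to 1011 in bone marrow. In fetal liver 9 were above background on no array (Col6a3, Dcn, Lum, Pdgfra, Des, Postn, Cxcl12, Thy1 and Reln). Col1a2 gave 208, 278 and 225 in fetal liver, against 54.7, 110 and 75.2 in bone marrow. The part of these cells in the network's signals was not tested.

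Blood lineage markers did move with tissue. Of 14 erythroid markers 3 were higher, with summed signals of 28390 to 43647 in fetal liver and 19778 to 25185 in bone marrow. Of 13 granulocyte and monocyte markers 11 were lower, with summed signals of 4937 to 7111 in fetal liver and 44623 to 71927 in bone marrow. Of 14 endothelial markers 1 was higher, of 12 tissue macrophage markers 3 were lower, and of 11 stem and multipotent markers 2 were higher and 4 lower. The part of these lineages in the network's difference was not tested either.

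**Figure D5:**
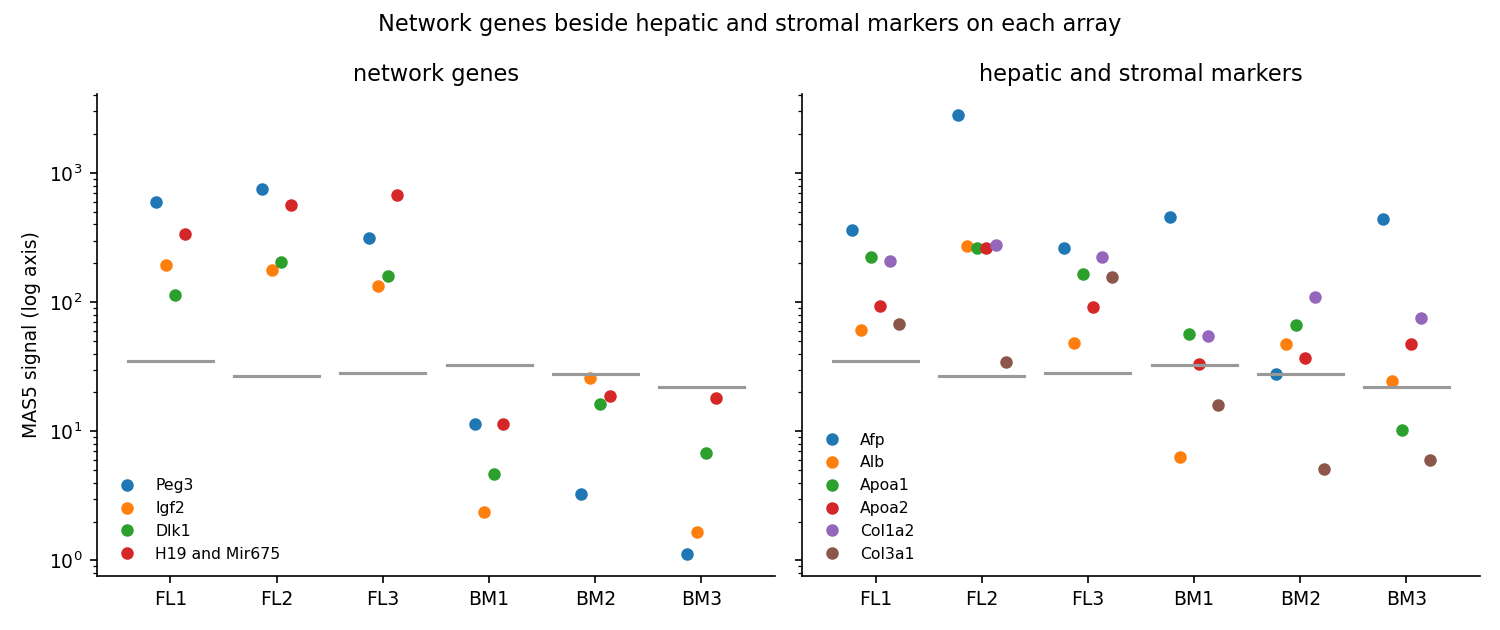
Linear MAS5 signal (log axis) on each fetal liver (FL) and bone marrow (BM) array of Peg3, Igf2, Dlk1 and the H19 and Mir675 probe set (left) and of hepatic and stromal markers (right), with grey dashes for each array's background. The 4 network probe sets drawn are below background on all 3 bone marrow arrays. The called Grb10, Plagl1 and Ndn, whose brightest probe sets are above background on all 3, are not drawn. Afp overlaps between the tissues and reaches 2793 on fetal liver replicate 2 and 457 on bone marrow replicate 1, while Apoa1 and Col1a2 are higher in fetal liver without overlap.

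For the 3 members with the largest called change by their brightest probe set, the genes outside the network of most similar profile over the 6 arrays were found. The distance was the mean absolute difference of log2 signals centred on each gene's mean. Other members were left out of the search, so a member may lie nearer than the genes named. Nearest to Peg3 were Igf2bp1 (0.37) and Slc30a10 (0.48). Nearest to Igf2 were Ank3 (0.30) and Slc7a2 (0.41), and nearest to Dlk1 were Tdrp (0.26) and Rps6ka6 (0.31). These distances rest partly on marrow signals below background, which hold little information on profile.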

How the data were processed

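Signals of 6 Affymetrix arrays (3 fetal liver, 3 bone marrow) were analysed. The authors deposited MAS5 intensity values per probe set, unlogged, as the submitters' processing notes name that tool; version and settings are not given in the sources used. Every array had a 2% trimmed mean of 500. Groups came from the sample labels. An offset of 2.87, the 10th percentile of all signals, was added before taking log2, which understates changes of dim probe sets. All 45037 non-control probe sets were fitted, with no filter, in limma 3.58.1 (R 4.3.3; lmFit, and eBayes with the variance trended on intensity). Adjustment was by Benjamini-Hochberg, with a threshold of 0.05. The fit was tested on simulated data. Genes outside the network were taken by their brightest probe set with 1 symbol. Promoter windows on 1 chromosome were left out of the motif count.

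The members and lists were chosen with earlier results of these data known. Named genes were all members, up to 4 called genes of each list (or the 2 with the smallest p) and the gate's genes. The 2 genes outside the network most similar in profile to each of 3 members were also named. Of the brightest markers, signals are printed for Afp, Apoa1 and Col1a2 only. Those of Krt18, Col3a1, Ncam1 and the brightest markers of the other lists are not printed. Probe sets with an _x_at or _s_at suffix may read related transcripts. Alternatives covered the offset, a floor, normalization, filters, the variance trend, the replicate block and each array left out. Sequences are RefSeq's on GRCm38.p6; the array values name no build.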

Additional observations from a re-analysis of the deposited data

How the results depend on the processing

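No called member probe set changed direction under any alternative run. Over all probe sets, the counts of 400 higher and 787 lower in fetal liver became 894 and 1357 with signals floored at background, and 152 and 292 without the intensity trend. Median centring gave 1080 higher; it moved the median change by 0.25 and the share of calls that were higher to 62.8%, against 33.7% in the uncentred fit, while quantile normalization moved the median by 0.11. With 1 array left out the counts were 105 to 297 higher and 338 to 549 lower. Of the 36 member probe sets, 13 were called higher, 6 without the trend and 5 to 11 with 1 array left out. The alternatives that tested all 36 on all 6 arrays with the trend gave 13 to 15, and the 2 filters, which tested fewer of them, gave 12 and 14. Among the 25 without an x or s suffix 9 were called. The cause of these shifts was not tested.

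The labels do not say whether replicate numbers pair samples across tissues, and the fit described here treated them as unpaired. Deviations from the group means correlated at 0.06, -0.01 and 0.05 for replicates 1, 2 and 3, which cannot settle pairing. With a replicate block the counts were 532 higher and 894 lower over all probe sets and 15 among the members, where the block added calls of a Grb10 probe set (1430164_a_at, adjusted p = 0.0107) and a further Ndn probe set (1435383_x_at, 0.0228); in the lists they were 0 higher other imprinted genes, 1 lower close relative, and 1 higher progenitor and 1 lower endothelial marker.

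The lists' counts were small and moved often. Of other imprinted genes, 0 were higher without an offset or under either filter, 2 were lower under the filter on arrays above background, and 0 to 2 were higher and 0 lower with 1 array left out. With signals floored, 1 lower IGF2 partner, 1 higher and 1 lower close relative, 2 higher progenitor, 2 higher hepatic, 1 lower endothelial and 7 higher erythroid markers were called. Without the trend, 0 imprint maintenance genes, 0 NOTCH partners and 0 higher endothelial markers were called, with 1 higher erythroid, 1 higher and 1 lower stem, 4 lower granulocyte and 1 lower macrophage marker. Centring gave 1 higher progenitor, 5 higher erythroid and 1 higher macrophage marker; quantile normalization and both filters also gave 5 erythroid, and both filters 1 lower endothelial marker. With 1 array left out, counts were 0 to 1 for higher imprint maintenance genes, lower NOTCH partners, lower stromal markers and higher and lower endothelial markers, 1 to 4 for higher erythroid, 1 to 2 for higher stem and 1 to 3 for lower macrophage markers. Where marrow signals were below background, the size of a change is known only as a bound.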

Other observations

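Some imprinted genes outside the network had array-by-array patterns that belong to no comparison above; they were chosen after their values were seen. Rian, a non-coding RNA of the Dlk1 and Meg3 cluster, gave 18.5, 119 and 23.0 in fetal liver, against 16.1, 1.45 and 3.52 in bone marrow, so 1 fetal liver array alone was above background (adjusted p = 0.223). Atp10a, a lipid flippase, gave 52.0, 49.0 and 37.3 in fetal liver, against 144, 302 and 208 in bone marrow, without overlap and without a call (-2.12 ± 0.54 log2, SE, limma adjusted p = 0.0672).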
